A study of Mus musculus with 6 samples.

Results

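Zinc-binding and zinc-moving genes were followed in macrophages that had been polarized, irradiated or both. The group held 6 of the 24062 genes counted: the metallothioneins Mt1 and Mt2, the zinc-sensing transcription factor Mtf1, the zinc exporter Slc30a1 (ZnT1) and the zinc importers Slc39a14 (ZIP14) and Slc39a1 (ZIP1). They were chosen by name, and all 6 had at least 10 reads in every library. The cells were RAW264.7, an established mouse macrophage line of tumor origin, for which the labels also give bone marrow as the tissue. M0 cells received no cytokine, M1 cells were treated for 24 h with LPS at 100 ng/mL plus IFN-γ at 20 ng/mL, and M2 cells for 24 h with IL-4 at 20 ng/mL. RM0, RM1 and RM2 were the same states after 10 Gy of gamma rays and 24 h of further culture. RNA from 5 wells was pooled into 1 library per condition, so that there were no biological replicates and no spread between cultures could be measured.

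Metallothioneins are very small, cysteine-rich proteins that bind zinc and copper, buffer free zinc and can scavenge oxidants. When free zinc rises in a cell, MTF1 binds metal response elements (MREs) in the promoters of metallothionein genes and of Slc30a1 and raises their transcription. ZnT proteins of the Slc30 family lower cytosolic zinc by exporting it or moving it into organelles, and ZIP proteins of the Slc39 family bring zinc into the cytosol. In macrophages, inflammatory stimuli are known to induce metallothioneins and to redistribute zinc between the cytosol and compartments.

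Mt1 and Mt2 lie side by side on chromosome 8 of the mouse genome (build GRCm38), both on the plus strand, with Mt2 at chr8:94172618-94173567 and Mt1 at chr8:94179089-94180327, 5521 bases apart. Because the next results compare reads of these close relatives, the coding sequences of both are shown first, with capitals at the 38 positions of 186 at which they differ.
Mt1: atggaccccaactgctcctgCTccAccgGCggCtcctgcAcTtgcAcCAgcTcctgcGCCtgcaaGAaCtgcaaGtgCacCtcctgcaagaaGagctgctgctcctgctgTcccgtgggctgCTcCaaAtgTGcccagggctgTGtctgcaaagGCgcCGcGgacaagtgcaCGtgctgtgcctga
Mt2: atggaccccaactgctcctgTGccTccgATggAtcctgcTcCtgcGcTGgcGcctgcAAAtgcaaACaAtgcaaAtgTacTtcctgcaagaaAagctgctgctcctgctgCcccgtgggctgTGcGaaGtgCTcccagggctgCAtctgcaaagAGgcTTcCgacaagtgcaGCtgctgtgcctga
The sequences were identical at 148 positions (79.6%), and the longest stretch that the spliced transcripts shared was 20 bases. No window of 100 bases of either transcript occurred in any other gene, so that reads of 100 bases from Mt1 and Mt2 could be told apart. Mt2 overlapped an antisense gene, Gm45774, on the opposite strand, and the strand setting of the read counting is not given in the sources used here. The other 4 genes lay at chr4:124802549-124849800 (Mtf1), chr1:191908851-191913247 (Slc30a1), chr3:90248192-90253612 (Slc39a1) and, on the minus strand, chr14:70303467-70351424 (Slc39a14). Mtf1 overlapped the gene 1110065P20Rik on the opposite strand and held the rRNA gene n-R5s192 on its own strand, and 1700034H15Rik lay opposite the start of the GENCODE gene of Slc30a1. The listed span of Slc30a1 covered 67.8% of the gene in GENCODE M21, and the other spans covered at least 99.1%.

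The sequences around the annotated starts of 5 of the 6 genes (all but Slc39a14) were taken from RefSeq (GRCm38.p6), each with 250 bases before and 30 bases after the start. They were searched on both strands for the MRE core, spelled TGCACNC or TGCGCNC, since MTF1 is a member of the group. The 3 sequences that held the core are shown with each match in capitals, from chr8:94178839-94179118 for Mt1, chr8:94172368-94172647 for Mt2 and chr1:191906531-191906810 for Slc30a1, all on the plus strand.
Mt1: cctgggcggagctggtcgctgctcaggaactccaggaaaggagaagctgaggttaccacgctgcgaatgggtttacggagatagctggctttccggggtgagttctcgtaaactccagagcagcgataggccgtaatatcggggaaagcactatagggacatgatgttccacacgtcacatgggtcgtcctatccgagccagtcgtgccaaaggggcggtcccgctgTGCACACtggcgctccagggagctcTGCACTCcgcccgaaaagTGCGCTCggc
Mt2: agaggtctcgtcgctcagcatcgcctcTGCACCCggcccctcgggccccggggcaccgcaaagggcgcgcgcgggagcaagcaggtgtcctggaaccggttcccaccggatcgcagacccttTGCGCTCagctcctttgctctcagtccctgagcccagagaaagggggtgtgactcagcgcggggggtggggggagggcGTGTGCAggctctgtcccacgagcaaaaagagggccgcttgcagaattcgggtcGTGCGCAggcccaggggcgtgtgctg
Slc30a1: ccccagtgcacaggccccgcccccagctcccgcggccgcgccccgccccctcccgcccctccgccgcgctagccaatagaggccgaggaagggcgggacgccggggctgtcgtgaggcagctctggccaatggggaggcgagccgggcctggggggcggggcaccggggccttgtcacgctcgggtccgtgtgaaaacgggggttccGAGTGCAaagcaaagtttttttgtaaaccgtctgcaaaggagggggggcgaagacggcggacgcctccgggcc
Mt1 held 3 matches, Mt2 held 4 and Slc30a1 held 1, whereas Mtf1 and Slc39a1 held 0. In bases before the annotated start, the matches began at 23, −2 and −20 in Mt1 and at 223, 128, 50 and −4 in Mt2. Negative values lie after the start. Of 32851 windows of the same length, 24.1% held at least 1 match and 1.73% held 3 or more. An antioxidant response core spelled TGACNNNGC had 1 match each in Mt2, Slc30a1 and Slc39a1 and was present in 11.5% of all windows. Another core, spelled TTCNNNGAA (GAS), had 0 matches in the 5 genes and was present in 7.8% of all windows. A match describes letters only, and binding was not measured.

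Each library held between 17894937 and 18870516 reads assigned to genes. Levels are given as TMM-scaled CPM (TMM CPM, reads of a gene relative to the reads of its library), where TMM is a scaling that sets the bulk of genes equal between libraries, with exact 95% Poisson intervals that cover counting error only. All 10 macrophage markers had more than 10 reads in every library, the 6 epithelial markers were at 0, and 5 of 6 lymphocyte markers had at most 3 reads. The fibroblast list summed to 6.47 to 10.0 TMM CPM in the M0, M2, RM0 and RM2 libraries and to 43.0 and 46.2 in M1 and RM1. Its collagen genes Col1a2 and Col3a1 were at 0 throughout, while Col1a1 held 0 to 11 reads, Lum 8 to 34 and Pdgfra 1 to 4. Dcn, which encodes decorin, held 627 reads in M1 and 726 in RM1 against 113 to 177 elsewhere. The part of this in the M1 results was not tested. In bulk libraries, a change in the number of cells that express a gene and a change in RNA per cell cannot be told apart.

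Per kilobase of spliced transcript, the metallothioneins were by far the most abundant of the 6 genes. The median level over the 6 libraries was 564 TMM CPM per kilobase for Mt2 and 230 for Mt1. The importers followed at 65.8 for Slc39a14 and 62.5 for Slc39a1. The regulator Mtf1 stood at 8.47 and the exporter Slc30a1 at 3.69. The listed span of Slc30a1 covered 67.8% of its GENCODE gene, and its level was divided by the full spliced length of 5244 bases. If reads were counted over that span alone, 3.69 is too low. The related genes Mt3 and Mt4 were at or below 3 reads in every library, so that the metallothionein reads of these cells came from Mt1 and Mt2.

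**Figure D1:**
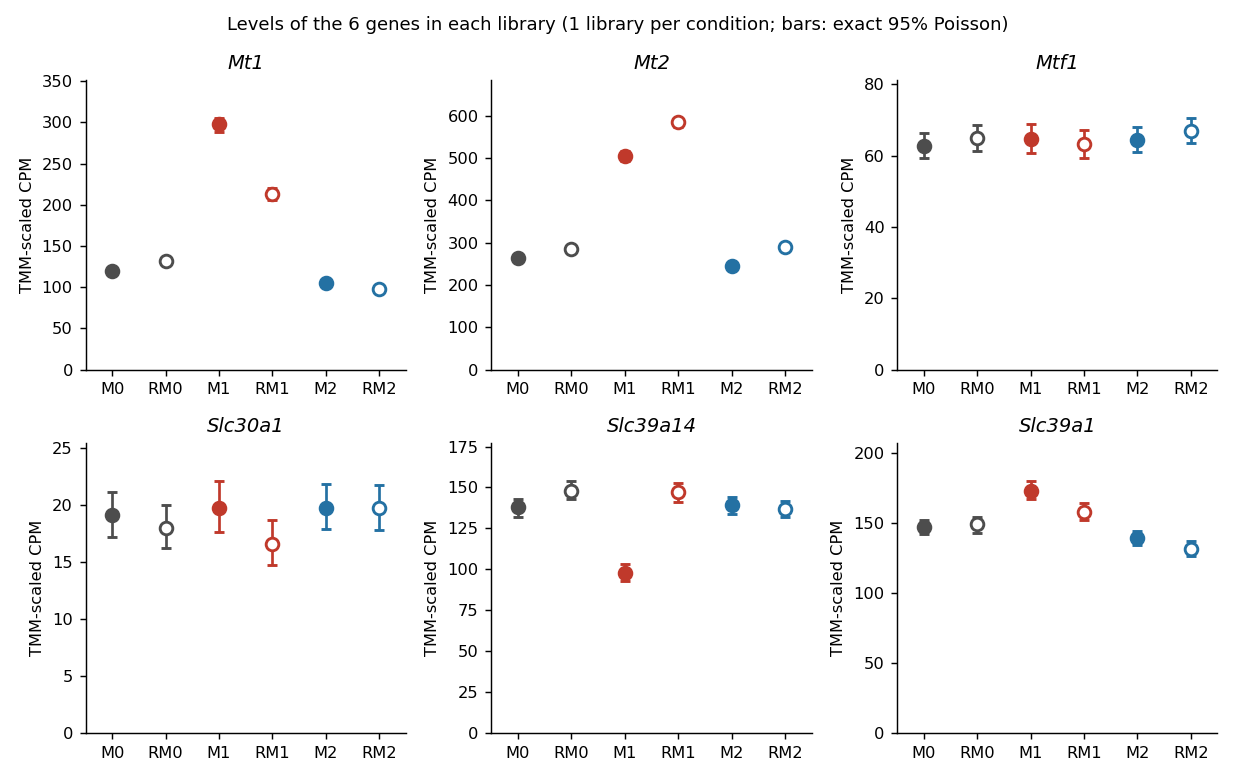
Level of each of the 6 genes (TMM CPM, vertical axis from 0) in the 6 libraries (horizontal axis), with 1 point per library, filled for non-irradiated and open for irradiated cells, and bars for exact 95% Poisson intervals. Mt1 and Mt2 stand highest in M1 and RM1, Slc39a14 stands lowest in M1, and Mtf1 lies between 62.8 and 67.0 in all 6 libraries.

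Mt1, which encodes one of the main zinc-buffering proteins, stood at 298 TMM CPM in M1 and 213 in RM1, against 120 in M0, 132 in RM0, 105 in M2 and 97.3 in RM2. The M1 and RM1 libraries were the highest, and of the 5 neighbouring pairs in the order of levels only M2 and RM2 had overlapping intervals. Mt2, its neighbour and close paralog, stood at 504 TMM CPM in M1 and 585 in RM1, against 264 in M0, 286 in RM0, 245 in M2 and 290 in RM2. M1 and RM1 were again the highest, but here RM1 exceeded M1, and only RM2 and RM0 overlapped among neighbours. The highest level was 3.06 times the lowest for Mt1 and 2.39 times for Mt2.

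Mtf1, the transcription factor that senses zinc, stood at 64.8 TMM CPM in M1 and 63.2 in RM1, beside 62.8 in M0, 65.0 in RM0, 64.5 in M2 and 67.0 in RM2. All 5 neighbouring pairs overlapped, and the highest level was 1.07 times the lowest. Slc30a1, the exporter at the plasma membrane, held 296 reads in M1 and 275 in RM1, beside 377 in M0, 352 in RM0, 401 in M2 and 390 in RM2. After scaling these were 16.6 TMM CPM in RM1, the lowest, to 19.7 in M1, M2 and RM2. Its neighbouring pairs likewise all overlapped, with the widest intervals of the group relative to its level. Neighbours in the order of levels are the closest pairs, so their overlap does not show that all conditions were equal. For Slc30a1, RM1 against M1 had a log2 fold change of −0.25 (95% counting interval −0.49 to −0.01). Its intervals in the other comparisons included no change, as did all those of Mtf1.

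Slc39a14, an importer that also carries iron and manganese, stood at 97.9 TMM CPM in M1 and 147 in RM1, beside 138 in M0, 148 in RM0, 139 in M2 and 137 in RM2. The M1 library stood apart below the other five, whose neighbouring intervals overlapped. Slc39a1, an importer found in most cell types, stood at 173 TMM CPM in M1 and 158 in RM1, beside 147 in M0, 149 in RM0, 139 in M2 and 131 in RM2. Only M1 stood clear of its neighbour. Slc39a1 shared 14.8% of its 100-base windows with the pseudogene Slc39a1-ps, so its counts carry that uncertainty.

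The first question was how polarization with LPS and IFN-γ changed these genes. Without irradiation, Mt1 was 2.47-fold higher in M1 than in M0 (log2 fold change 1.31, 95% counting interval 1.23 to 1.38) and Mt2 was 1.91-fold higher (0.93, 0.88 to 0.99). Among irradiated cells, Mt1 was 1.61-fold higher in RM1 than in RM0 (0.69, 0.62 to 0.77) and Mt2 was 2.04-fold higher (1.03, 0.98 to 1.08). With a threshold of 2-fold and at least 10 reads in 1 of the 2 libraries, 1 of 6 genes was called in each comparison, Mt1 in the first and Mt2 in the second. Of all genes, 22.7% were called in M1 against M0 (8.98% higher and 13.7% lower) and 14.1% in RM1 against RM0 (6.26% higher and 7.84% lower), so that a call at this threshold was common. The reads of Mt1 and Mt2 together went from 384 TMM CPM in M0 to 802 in M1 (log2 fold change 1.06, 1.02 to 1.10) and from 418 in RM0 to 798 in RM1 (0.93, 0.89 to 0.97).

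A model over all 6 libraries took the irradiated and non-irradiated arms as stand-ins for replicates of polarization, with 2 residual degrees of freedom. In edgeR's quasi-likelihood test with Benjamini-Hochberg adjustment over 11574 genes, Mt1 rose with M1 polarization (log2 fold change 1.00, adjusted p = 0.000371), as did Mt2 (0.98, adjusted p = 0.000114). With TMM they were the only 2 of the 6 genes past the adjusted threshold of 0.05, where 22.9% of all genes rose and 24.7% fell. Mtf1 (0.00), Slc30a1 (−0.03), Slc39a14 (−0.24) and Slc39a1 (0.16) did not pass. Both metallothioneins stood higher in M1 than in M0 and in RM1 than in RM0, and both also passed with library totals in place of TMM (0.66 and 0.65). Mtf1 and Slc39a14 passed as well with library totals, both as lower with M1 polarization, so the result for these genes depended on scaling.

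The size of the metallothionein difference depended on scaling and on whether trends with GC content and length were removed. Whether transcript length itself played a part was not tested. With library totals alone, M1 exceeded M0 by a log2 fold change of 0.89 for Mt1 and 0.52 for Mt2, while the median of all genes moved from −0.05 to −0.46. Under that scaling Mtf1, Slc30a1 and Slc39a1 turned to −0.37, −0.36 and −0.18 in M1 against M0, so no direction is given for them. Mt1 and Mt2 have spliced transcripts of 549 and 511 bases, and the 156 genes of at most 600 bases had a median log2 fold change of 0.48 in M1 against M0 and 0.25 in RM1 against RM0. Once the trends with GC content and length were removed, the M1 against M0 difference was 0.79 for Mt1 and 0.43 for Mt2, and in RM1 against RM0 it was 0.63 and 0.91. No member was then called at 2-fold, although both metallothioneins remained above 0.

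**Figure D2:**
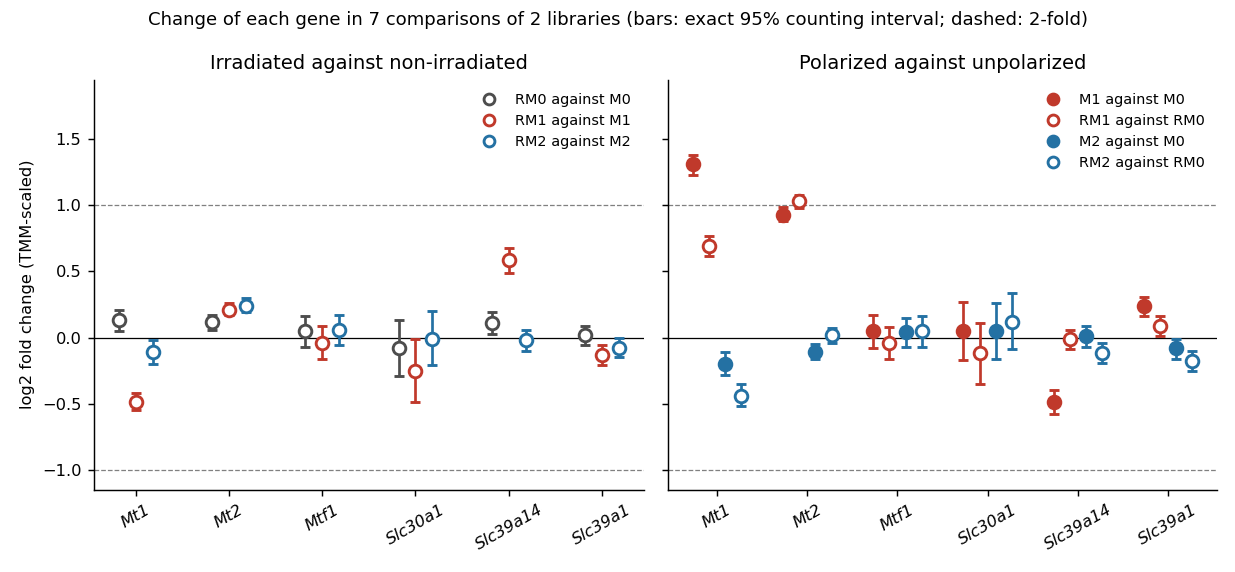
Log2 fold change (vertical axis, TMM-scaled) of the 6 genes (horizontal axis) in the 7 comparisons of 2 libraries, irradiation at left and polarization at right, with bars for exact 95% counting intervals and dashed lines at 2-fold. Mt1 in M1 against M0 (1.31) and Mt2 in RM1 against RM0 (1.03) lie past the 2-fold line, and after irradiation of M1 cells Mt1 (−0.49) and Slc39a14 (0.59) lie on opposite sides of 0.

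IL-4 gave small differences. In M2 against M0, the 6 genes ranged from −0.20 for Mt1 (−0.28 to −0.11) to 0.05 for Slc30a1 (−0.16 to 0.26), and 0 of 6 were called where 1.44% of all genes were. In RM2 against RM0, Mt1 stood lowest at −0.44 (−0.52 to −0.35, and −0.11 with the GC and length trends removed) and Slc30a1 highest at 0.12, with 0 of 6 called against 2.6% of all genes. Over both arms the quasi-likelihood test called 0 of 6 genes, and 0 at an unadjusted p under 0.05, where 0.242% of all genes passed the adjusted threshold. DESeq2 likewise called 0 of 6. Mt1 had a log2 fold change of −0.32 there (adjusted p = 0.487). In a fit without the M1 and RM1 libraries its value was −0.31 with an adjusted p of 0.0219 from the same edgeR test. That fit had 1 residual degree of freedom and called far more of all genes than the fit of all 6 libraries (see the last section). With the GC and length trends removed, Mt1 stood at −0.07 in M2 against M0.

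The next question was how these genes differed after 10 Gy in each state. Irradiated cells had 24 h of further culture, and whether non-irradiated cells had it too is not given in the sources used here, so that the dose and the added time cannot be told apart in these values. In unpolarized cells all 6 differed little between RM0 and M0, from −0.08 for Slc30a1 (−0.29 to 0.13) to 0.13 for Mt1 (0.05 to 0.21). In M2 cells the range in RM2 against M2 was −0.11 for Mt1 (−0.20 to −0.02) to 0.24 for Mt2 (0.19 to 0.30). In M1 cells the genes spread further. Mt1 stood at −0.49 in RM1 against M1 (−0.55 to −0.42), Slc30a1 at −0.25 (−0.49 to −0.01), Mt2 at 0.21 (0.17 to 0.26) and Slc39a14 at 0.59 (0.49 to 0.68). At 2-fold, 0 of 6 genes were called in any state, against 1.54% of all genes in RM0 against M0, 5.32% in RM1 against M1 and 1.97% in RM2 against M2.

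With the 3 states as stand-ins for replicates of irradiation, edgeR's quasi-likelihood test called 0 of 6 genes, and 0 at an unadjusted p under 0.05, while 0.458% of all genes passed the adjusted threshold. DESeq2 also called 0 of 6. The log2 fold changes shared by the states were −0.16 for Mt1 (adjusted p = 0.564), 0.19 for Mt2 (0.386) and 0.22 for Slc39a14 (0.412), all in edgeR. Without the M1 and RM1 libraries the Mt1 value was 0.01 and that of Slc39a14 was 0.05, so the shared values of both rested on M1 cells.

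Whether irradiation acted differently in M1 cells was tested with M0 and M2 as stand-ins for each other, which leaves 1 residual degree of freedom. The irradiation effect on Mt1 was lower in M1 than in M0 and M2 by 0.50 on the log2 scale (edgeR quasi-likelihood log2 difference −0.50, adjusted p = 0.0372). That on Slc39a14 was higher by 0.54 (adjusted p = 0.0232). These were 2 of 6 genes, where 8.78% of all genes passed. With DESeq2 the log2 differences were about as large (−0.54 for Mt1 and 0.49 for Slc39a14) but did not pass, at adjusted p = 0.143 and 0.213. Without the filter on low counts they were −0.50 and 0.54 and did not pass either, at adjusted p = 0.148 and 0.108 in edgeR. With library totals Mt1 stood at −0.33 (adjusted p = 0.165) and Slc39a14 at 0.70 (adjusted p = 0.000997) in edgeR.

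The M1 values after irradiation moved with base composition and length across all genes. In RM1 against M1, genes with at most 45.6% GC (the lower quartile) had a median log2 fold change of 0.259 and those with at least 54.9% (the upper quartile) −0.22, and genes of at most 600 bases had −0.21. Mt1 is short, with a GC content of 58.11%. Its value in RM1 against M1 was −0.27 with the GC trend removed and −0.07 with the length trend removed as well. Slc39a14, with 2098 bases and 55.24% GC, kept its sign, at 0.73 and 0.78. Its transcript was lower in M1 than in M0 (log2 fold change −0.49, −0.58 to −0.40). In RM1 against RM0 it stood at −0.01 with TMM (−0.09 to 0.06), at −0.27 with library totals and at 0.14 with both trends removed.

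The share of Mt2 among all metallothionein reads compares both genes within 1 library and so does not depend on how libraries were scaled. Mt2 made up 68.7% of Mt1 and Mt2 reads in M0 (95% Clopper-Pearson interval 67.6 to 69.7) and 68.5% in RM0 (67.5 to 69.5). In M1 it made up 62.9% (62.0 to 63.8), the lowest share, and in RM1 73.3% (72.6 to 74.1). In M2 it made up 70.0% (68.9 to 71.1) and in RM2 74.9% (73.9 to 75.8), the highest share. Thus the intervals of irradiated and non-irradiated cells overlapped in the unpolarized state and did not overlap in either polarized state.

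In terms of reads, each Mt1 read was matched by 2.19 Mt2 reads in M0 and 2.17 after irradiation, by 1.69 in M1 and 2.75 after irradiation, and by 2.34 in M2 and 2.98 after irradiation. The log2 fold change of Mt2 exceeded that of Mt1 by 0.70 in RM1 against M1 and by 0.35 in RM2 against M2, and differed by −0.01 in RM0 against M0. Both genes have nearly the same length and similar GC content (58.11% for Mt1 and 55.58% for Mt2), and the excess was 0.64 and 0.31 after both trends were removed. With TMM scaling the summed level of both genes stood at −0.01 in RM1 against M1 (−0.04 to 0.03), with Mt1 at −0.49 and Mt2 at 0.21. This balance depended on the processing, since Mt1 stood at −0.07 and Mt2 at 0.57 once the GC and length trends were removed. It was 0.15 higher in RM2 against M2 (0.10 to 0.19) and 0.12 higher in RM0 against M0 (0.08 to 0.17). The intervals cover counting error within single libraries, and the spread of this share between cultures was not measured.

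**Figure D3:**
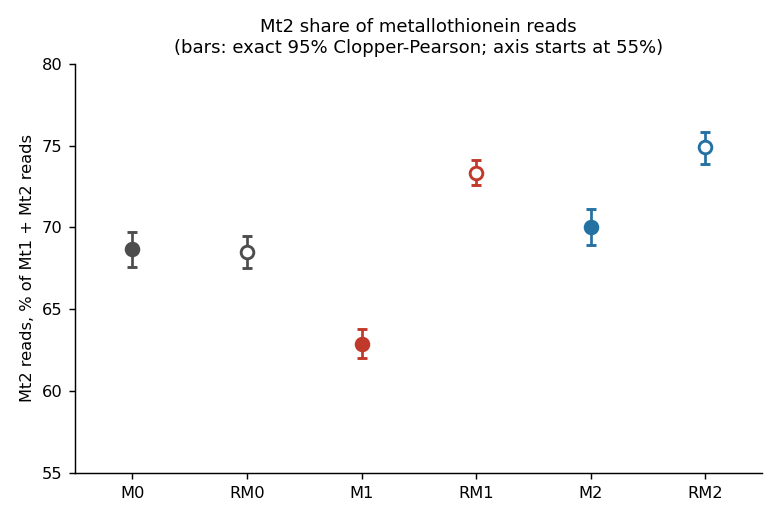
Reads of Mt2 as a percentage of the reads of Mt1 and Mt2 (vertical axis, starting at 55%) in each library (horizontal axis), filled for non-irradiated and open for irradiated cells, with exact 95% Clopper-Pearson intervals. The share is lowest in M1 (62.9%), and it is higher in RM1 than in M1 and in RM2 than in M2, whereas M0 and RM0 overlap.

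The wider zinc pathway was described with a list of 29 genes: Mtf1, the 4 metallothioneins and the Slc30 and Slc39 transporter families, including the 6 genes above. Of these, 21 held at least 10 reads in at least 3 libraries. The metallothioneins Mt3 and Mt4 and the transporters Slc30a3, Slc30a8, Slc30a10, Slc39a5 and Slc39a12 had at most 3 reads in any library, and Slc30a2 had 1 to 5. In M1 against M0, 3 of 21 were called higher and 1 lower, where 8.98% of all genes were called higher and 13.7% lower. The median log2 fold change was 0.24 against −0.05 for all genes. With library totals these medians were −0.18 and −0.46. In RM1 against RM0, 2 were called higher and 0 lower, where 6.26% of all genes were called higher and 7.84% lower. The median there was 0.09 against 0.00 for all genes. In the quasi-likelihood test of M1 polarization, 6 of 21 rose and 0 fell, where 22.9% of all genes rose and 24.7% fell. With library totals, Mt1, Mt2 and Slc39a10 were the only 3 of these 6 that passed. Under that scaling Mtf1 and Slc39a14 passed as falls, so the absence of falls depended on TMM. Falls on library totals were counted among the 6 genes above only, so the number among the 21 is not given.

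Among the importers, Slc39a10 (ZIP10), a plasma membrane transporter, had the highest log2 fold change in both M1 comparisons. Its level was 44.4 TMM CPM in M1 and 49.8 in RM1, against 17.4 in M0, 15.7 in RM0, 18.2 in M2 and 20.4 in RM2, with M1 and RM1 far above the rest. It was 2.54-fold higher in M1 than in M0 (log2 fold change 1.34, 1.16 to 1.54) and 3.16-fold higher in RM1 than in RM0 (1.66, 1.47 to 1.86). It rose with M1 polarization in the model (1.5, adjusted p = 2e-05, edgeR). Slc39a10 has a transcript of 5498 bases, and its value in M1 against M0 was 1.49 with the GC and length trends removed.

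Other importers had smaller or less certain differences. Slc39a2 (ZIP2) held 48 to 111 reads and rose with M1 polarization (0.98, adjusted p = 0.00709, edgeR, and 0.64 with adjusted p = 0.0565 on library totals), and it was at the 2-fold threshold in M1 against M0 (1.00, 0.58 to 1.47). Slc39a3 (ZIP3) also rose in the model (0.46, adjusted p = 0.0358, edgeR), but its value on library totals was 0.13 (adjusted p = 0.555), and DESeq2 gave 0.49 (adjusted p = 0.0735). Slc39a8 (ZIP8), an importer known to respond to inflammatory signals, held only 12 reads in M1 against 45 in M0 (−1.39, −2.56 to −0.56) and 33 in RM1 (1.21, 0.33 to 2.41, against M1). It was called lower in the first and higher in the second comparison, where 3.23% of all genes were called higher. Slc39a7 (ZIP7), which releases zinc from the endoplasmic reticulum and was the most abundant importer per kilobase (median 118 TMM CPM per kilobase), stood at 0.42 in M1 against M0 (0.37 to 0.48) and at −0.48 in RM1 against M1 (−0.54 to −0.42). The first value was 0.01 with library totals, and the second was −0.24 with the GC and length trends removed.

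The remaining importers with a mean of at least 50 reads were not called. In M1 against M0, Slc39a6 stood at −0.36, Slc39a9 at −0.07, Slc39a11 at 0.11, Slc39a13 at 0.51 and Slc39a4 at 0.24, the last with an interval from −0.30 to 0.80. In RM1 against M1 the values were 0.33 for Slc39a6, 0.34 for Slc39a9, −0.45 for Slc39a11, −0.29 for Slc39a13 and −0.41 for Slc39a4. These values did not share a direction. On library totals Slc39a11 and Slc39a4 turned to −0.31 and −0.16 in M1 against M0 and Slc39a13 stood at 0.09, and with the GC and length trends removed Slc39a13 turned to 0.15 in RM1 against M1.

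Among the Slc30 transporters, which move zinc out of the cytosol, Slc30a7 (ZnT7), a transporter of the Golgi, passed for M1 polarization with TMM (0.33, adjusted p = 0.0360, edgeR) but stood at −0.01 on library totals (adjusted p = 0.965), so no direction is given for it. Slc30a5, which loads zinc into the early secretory pathway, stood at −0.40 in M1 against M0 (−0.52 to −0.28), its partner Slc30a6 at 0.35 (0.13 to 0.57) and the endosomal Slc30a4 at −0.05 (−0.17 to 0.06). On library totals these were −0.82, −0.06 and −0.47. After irradiation of M1 cells, Slc30a4 stood at 0.62 (0.51 to 0.73), Slc30a5 at 0.32, Slc30a6 at 0.09 and Slc30a7 at −0.02. With the GC and length trends removed these were 0.21, 0.15, 0.00 and −0.45. Slc30a9 (ZnT9), a mitochondrial zinc transporter, stood at 38.3 TMM CPM in M1 and 57.4 in RM1, beside 62.1 in M0, 57.0 in RM0, 62.6 in M2 and 70.9 in RM2. At this scaling M1 alone was low, as for Slc39a14, while on library totals RM1 against RM0 was −0.24 for Slc30a9. Its irradiation effect was higher in M1 than in M0 and M2 by 0.55 (adjusted p = 0.0366, edgeR), with 0.51 in DESeq2 (adjusted p = 0.36) and 0.55 without the filter on low counts (adjusted p = 0.156, edgeR). In RM1 against M1 it stood at 0.58, and at 0.26 with the GC and length trends removed. Of the 21 genes, 3 passed this test of a difference, namely Mt1, Slc39a14 and Slc30a9, where 8.78% of all genes passed, and 0 passed the test of an irradiation effect shared by the states, in which 3 (14.3%) had an unadjusted p under 0.05, as did 14.8% of all genes.

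**Figure D4:**
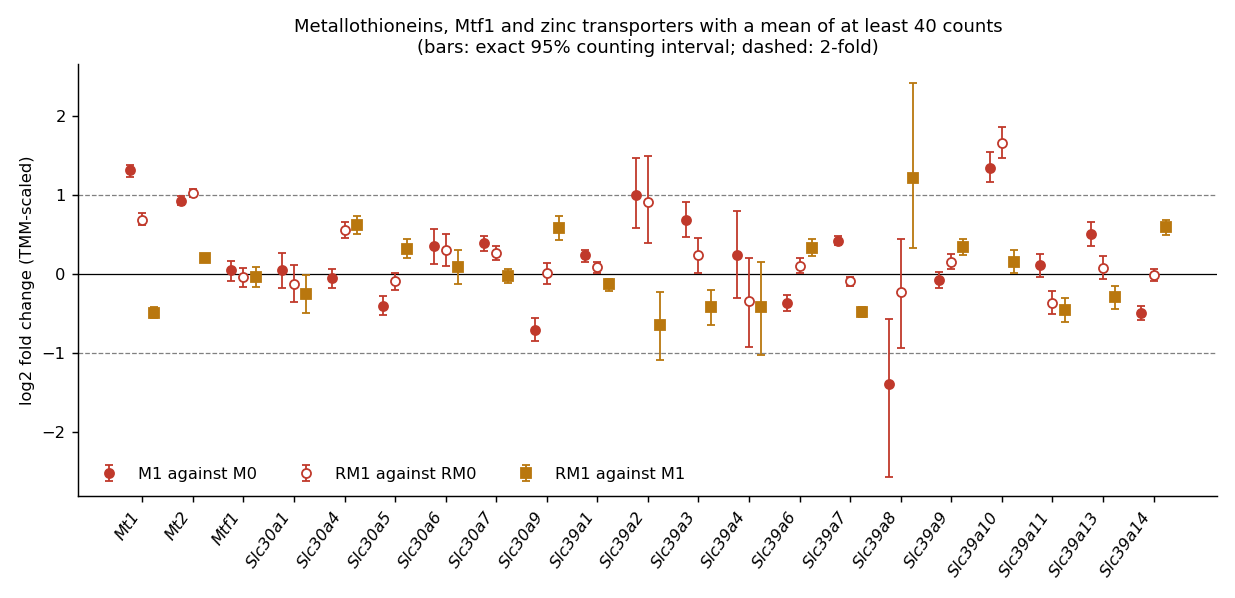
Log2 fold change (vertical axis, TMM-scaled) of the 21 listed genes with a mean of at least 40 reads (horizontal axis) in M1 against M0 (filled circles), RM1 against RM0 (open circles) and RM1 against M1 (squares), with exact 95% counting intervals and dashed lines at 2-fold. Slc39a10 lies past 2-fold in both polarization comparisons (1.34 and 1.66), and Slc39a8 has wide intervals at 12 to 46 reads.

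Metallothioneins also bind copper, so 11 copper-handling genes were set beside them. In the M1 polarization test, 3 of 10 rose and 2 fell, beside 22.9% and 24.7% of all genes. The importer Slc31a1 (CTR1) rose (0.95, adjusted p = 0.000554, edgeR), and its levels were 222 TMM CPM in M1 and 169 in RM1, against 96.2 in M0, 105 in RM0, 107 in M2 and 123 in RM2. It was called higher in M1 against M0 (log2 fold change 1.21, 1.12 to 1.29) and stood at −0.39 in RM1 against M1 (−0.47 to −0.32). The mitochondrial copper protein Sco2 fell (−1.30, adjusted p = 0.000169, edgeR), with 8.94 TMM CPM in M1 against 19.6 in M0 and 8.34 in RM1 against 23.0 in RM0. Atp7b, a copper-exporting ATPase, was called lower in RM1 and RM2 against RM0 with 4, 7 and 19 reads in those libraries, too few for a firm value, where 0.97% of all genes were called lower in RM2 against RM0.

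For each of the 6 genes, the 3 genes with the most similar profile were found by Pearson's r of log2 TMM CPM over the 6 libraries, among 10190 genes with a mean of at least 50 reads. The 6 points share libraries, 2 of which were high, and r is given as a description. For Mt1 they were Capzb, Itm2b and Prkaca (r = 0.9995 each), and for Mt2 they were Nup50 (0.9988), Clec2d and Rgs16 (both 0.9985). For Slc39a14 they were Inpp1 (0.9958), Fam222b (0.9941) and Cwc25 (0.9934), and for Slc39a1 they were Prdx2 (0.9983), Aes (0.9982) and Ccnd3 (0.9981). For the nearly flat Mtf1 they were Gfi1 (0.9684), Taf11 (0.9609) and Cacna1a (0.9404). For Slc30a1 they were 2810008D09Rik (0.9831), Shb (0.9737) and a gene that the table lists under a date in place of its symbol (0.944). Between the metallothioneins themselves r was 0.8945, and between Mt1 and Slc39a1 it was 0.9667.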

How the data were processed

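RNA of RAW264.7 macrophages was measured in 6 libraries, 1 per condition, each from 5 pooled wells. The authors deposited raw read counts for 24062 RefSeq genes (mouse build mm10). The submitters' processing notes name Trimmomatic 0.36, HISAT2 2.2.1 and HTSeq 0.11.3, and the study's methods name HTSeq and edgeR. The symbols of 27 genes had been turned into dates.

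Scaling was by TMM (edgeR 4.0.16, R 4.3.3), with a prior count of 2 in each log2 fold change. The call for a pair of libraries was a 2-fold difference where either held 10 counts or more. No p is given for 2 single libraries, and exact 95% intervals cover counting error only, since 1 library per condition has no replicate spread. They may be too narrow even for counting error, since PCR copies are not independent molecules. The edgeR quasi-likelihood tests used genes with at least 10 counts in 3 libraries (11574 genes), with polarization and irradiation as terms and Benjamini-Hochberg adjustment. The states or arms stood in for replicates. Each p-value therefore weighs an effect against the departure of the libraries from the fitted terms, and no spread between cultures was measured. On simulated data with a log2 change of 1, the tests recovered 95.5% of changed genes for irradiation, 93% for M1, 92.4% for M2 and 44.7% for the difference between states. There, 198 or 199 tested genes changed, equally in each library concerned, with a coefficient of variation of 0.1. The fits of the data gave 0.107 for irradiation, M1 and M2 and 0.0659 for the difference between states. The 44.7% was thus simulated with a larger spread than that fit had. The 2-fold call on 1 pair recovered 46% to 54% of changed genes, whose change lay at its threshold, with 81 to 108 false calls. Smaller changes, unequal changes and changes of many genes, as in M1, were not simulated. DESeq2 1.42.0, other scalings, other filters and omitted states were alternatives. Trends with GC content and length (lowess) were removed as an alternative added after seeing the data.

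Members, gene lists and tests were chosen with earlier results of these data known. The named genes were the 6 members, zinc genes of the list that averaged 50 counts or more or had a call, called copper genes, and the 3 genes nearest in profile to each member. Windows and gene positions came from RefSeq and GENCODE M21 (GRCm38). Figures and sequence searches used Python 3.11.15.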

Additional observations from a re-analysis of the deposited data

Results flagged for a closer look

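For 5 of the 31 tested genes of the zinc and copper lists the effect of irradiation differed between states by a test of the difference itself, in edgeR's quasi-likelihood fit with 1 residual degree of freedom, which 8.78% of all genes passed. For Mt1 the effect in M1 cells was below that in M0 and M2 cells, with a log2 difference of −0.50 (adjusted p = 0.0372), and for Slc31a1 likewise (−0.56, adjusted p = 0.0164). It was above that in M0 and M2 cells for Slc39a14 (0.54, adjusted p = 0.0232), Slc30a9 (0.55, adjusted p = 0.0366) and Atp7a (0.52, adjusted p = 0.0317), a copper-exporting ATPase. None of the 5 passed with DESeq2 (adjusted p from 0.0766 to 0.36) or without the filter on low counts (0.0891 to 0.156 in edgeR), and with library totals Mt1 and Slc31a1 did not pass (0.165 and 0.0918 in edgeR). In RM1 against M1, Mt1 stood at −0.49, and at −0.07 with the GC and length trends removed. The log2 fold change of Mt1 after irradiation also lay on opposite sides of 0 in M0 cells (0.13, 95% counting interval 0.05 to 0.21) and M2 cells (−0.11, −0.20 to −0.02, and 0.06 with both trends removed), and that difference was not tested.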

How the results depend on the processing

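With 1 library per condition, the p-values rest on the assumption that states or arms act alike, and depth limited the genes with fewest reads, such as Slc39a8, Slc39a4, Slc39a2 and Atp7b. No paired analysis was possible because the labels give 1 library per condition and no replicate numbers, beyond the state term that the irradiation test already held. The number of the 6 genes called in M1 against M0 (1) was 0 with library totals, 2 at a 1.5-fold threshold and 0 with GC and length trends removed, and in RM1 against RM0 (1) it was likewise 0, 2 and 0. In RM1 against M1 (0) it was 1 at 1.5-fold. No share of all genes at 1.5-fold is given beside these counts, so whether such calls were common was not tested. The irradiation effect shared by the states, 53 genes, gave 115 with DESeq2, 3 with library totals, 134 without a count filter, 34 with at least 100 counts in every library and 0 without a polarization term. It gave 250 without M0 and RM0, 536 without M1 and RM1 and 80 without M2 and RM2, in each case with 1 residual degree of freedom. The M2 effect, 28 genes, gave 3 with library totals, 45 without a filter and 1409 without M1 and RM1, when 1 of the 6 genes (Mt1) was called. The difference between states, 1016 genes, gave 169 with DESeq2, 1686 with library totals and 303 without a filter, with 0, 1 and 0 of the 6 genes called in place of 2. For M1 polarization 4 of the 6 were called with library totals in place of 2, the others being Mtf1 (−0.33, reversed, adjusted p = 0.0485) and Slc39a14 (−0.57, adjusted p = 0.0284). Among all genes, 5841 were called for M1 polarization with library totals, in place of 5509 of 11574 with TMM, so such calls were common under both scalings. Values near 0 that changed sign were, for irradiation, Mtf1 (0.00 without M0 and RM0, −0.01 without M2 and RM2) and Mt1 (0.01 without M1 and RM1), over ranges of 0.05 to −0.01 for Mtf1 and −0.31 to 0.01 for Mt1 when a state was left out. With library totals they were Slc39a1 (−0.17) in the M1 effect, Mt2 (0.02) and Slc39a14 (0.02) in the M2 effect, and Mtf1 (0.07) and Slc39a1 (0.06) in the difference between states. Mt2 changed to −0.01 in that difference with DESeq2 and with its size factors. The cause was not tested in these cases.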
